A study of Mus musculus with 30 samples.

Results

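The genes described here are the protein-coding mouse genes whose symbol is Zfp followed by a 3-digit number of at least 600. Of the 55487 genes in each count table, 174 had such a symbol and 169 of these were annotated as protein-coding with a position; they are called members below. Zfp683 and Zfp783 were left out as a pseudogene or long non-coding RNA, and Zfp969, Zfp986 and Zfp989 because the annotation used held no entry for them. The 195 protein-coding Zfp genes with a number below 600 and all other protein-coding genes served as comparison. The members lay on 20 chromosomes, and 81 of them stood in 11 runs of at least 4 members with gaps of at most 500 kb.

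Zfp symbols are given to mouse genes for DNA-binding proteins with zinc fingers, and many of the members belong to the KRAB class. A KRAB protein binds a short DNA sequence, often inside a retrotransposon, and recruits the corepressor TRIM28 with the histone methyltransferase SETDB1, which lays down H3K9me3, trimethylation of lysine 9 on histone H3. Such genes have multiplied as tandem copies in most mammals, and the 3′ part of their own gene bodies, which encodes the fingers, is itself known to carry H3K9me3. In embryonic stem cells, KRAB proteins and TRIM28 are known for keeping endogenous retroviruses silent. KDM4A and KDM4C are demethylases that remove methyl groups from trimethylated lysine 9.

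The series concerns ETV2, an ETS-family transcription factor of the first blood and endothelial cells, and its link to KDM4A. All samples were labelled mouse embryonic stem cells. RNA was counted in 18 libraries, 3 per group. Cells of the iETV2-KDM4A (H188A) line, called the H188A line here after a substitution known to abolish the demethylase activity of KDM4A, were sampled with and without DOX (doxycycline), and so were cells of the iETV2 line. The other 2 groups were cells with the genotype label KDM4A/4C DKO and cells labelled Control. H3K9me3 was mapped by ChIP-seq in 3 libraries from DOX-treated and 3 from untreated cells, for which the labels name no line. Their titles begin with EB, 2 DOX-treated libraries carry the tag D2 and 1 the tag D3, and 1 of those tagged D2 is titled Er71-Flag, ER71 being another name of ETV2. The labels do not say how many clones a line or genotype stands for, nor whether replicates were separate cultures, so p-values measure the spread between these libraries, which may be technical.

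Library totals ran from 40334911 to 68970038 counts. Etv2 averaged 18.6 ± 0.893 CPM (counts per 1000000 counts of the library) with DOX and 2.93 ± 0.176 CPM without DOX in iETV2, and 15.2 ± 3.54 CPM with DOX and 0.376 ± 0.270 CPM without DOX in the H188A line (SD, n = 3 each). In the libraries labelled DKO, Kdm4a averaged 43.9 ± 2.62 CPM against 54.6 ± 0.941 CPM in the control libraries, and Kdm4c averaged 45.5 ± 2.64 CPM against 30.7 ± 1.32 CPM. Kdm4c RNA thus went against the label, and the group is called DKO-labelled throughout; gene counts do not show whether the transcripts were functional. The marker lists for cell types also differed: the summed level of 9 pluripotency markers was 2610 to 2663 CPM in DKO-labelled and 567 to 582 CPM in control libraries, with Pou5f1 at 370 ± 17.8 CPM against 22.8 ± 0.529 CPM and Nanog at 210 ± 5.11 CPM against 6.98 ± 0.746 CPM. The 9 blood and endothelial markers summed to 175 to 181 CPM against 933 to 950 CPM, and all 9 fell. The sum of the 8 fibroblast markers, 101 to 109 CPM against 468 to 482 CPM, was mostly Col1a1, at 13.8 ± 0.879 CPM against 393 ± 2.46 CPM; the other 7 summed to 88.3 to 94.4 CPM against 77.9 to 86.7 CPM, and of the 8 markers 3 rose and 5 fell. Of the pluripotency markers, 8 rose and 1 fell. The H188A libraries without DOX stood apart from each other: the sum over odorant and pheromone receptor genes, which belong to sensory neurons, was 625, 205 and 53.4 CPM there and 20.6 to 189 CPM in the other 15 libraries. In bulk RNA, fewer cells of a type and less RNA per cell cannot be told apart.

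H3K9me3 was called over the members more often than over other genes. A region called in at least 2 of the 3 untreated libraries overlapped the gene body of 85 of the 169 members (50.3%), against 56 of 195 Zfp genes below 600 (28.7%) and 3993 of 20527 other coding genes (19.5%). Of the members, 70 were overlapped in all 3 untreated libraries, 15 in 2, 12 in 1 and 72 in none. Members over H3K9me3 had longer gene bodies, with a median of 26.1 kb against 14.5 kb for those outside it, and in other coding genes the medians were 59.5 kb and 14.4 kb. When at least 10% of the body had to be covered, 72 members (42.6%) met the rule, against 47 Zfp genes below 600 (24.1%) and 1796 other coding genes (8.75%).

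The mark was concentrated at the 3′ end of the members. Strand and start were known for 74 members over H3K9me3 with gene bodies of at least 5 kb. These were chosen by regions called in untreated libraries, so a lower share with DOX is partly fixed by the choice and no difference between treatments is read from it. Each body was cut into 10 equal parts. The first part was covered to 22.5% ± 3.78 in DOX-treated and 25.4% ± 1.71 in untreated libraries, and the last part to 65.7% ± 1.73 in DOX-treated and 74.0% ± 4.17 in untreated libraries (SD over libraries, n = 3 each). The last 2 kb of the gene were overlapped in at least 2 libraries for 57 of the 74 members with DOX (77.0%) and for 66 without DOX (89.2%). The window from 250 bases before to 50 bases after the start was overlapped in 15 with DOX (20.3%) and in 16 without DOX (21.6%). In untreated libraries, 45 Zfp genes below 600 chosen the same way had a first part at 10.4% ± 3.19 and a last part at 60.8% ± 1.83, whereas 2754 other coding genes had 14.1% ± 1.25 and 16.9% ± 1.05.

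**Figure D1:**
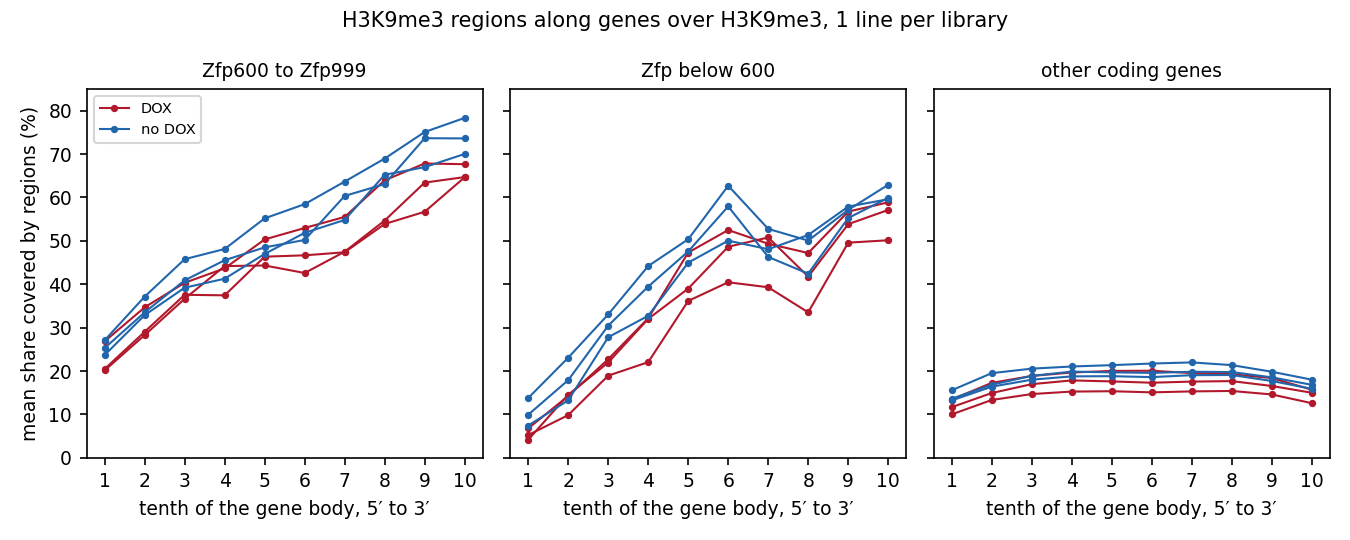
Mean share of the gene body covered by H3K9me3 regions (y, percent) in each of 10 equal parts of the gene from 5′ to 3′ (x), for genes over H3K9me3, with 1 line per library (DOX red, no DOX blue). In the members the lines climb from 20.2 to 27.1% in the first part to 64.7 to 78.3% in the last, while other coding genes stay between 10.02 and 21.99%.

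DOX treatment was not shown to change the mark over the members. Regions overlapped 86, 84 and 87 members in the DOX-treated libraries and 85, 88 and 79 in the untreated ones, a difference of 1.67 members (two-sided exact permutation test, p = 0.8). The share of all member gene bodies under regions was 32.9, 29.1 and 29.8% with DOX and 31.9, 36.2 and 34.3% without DOX. The groups overlapped, and the difference of -3.56 percentage points gave p = 0.2 in the same exact permutation test, whose smallest possible p with 3 against 3 libraries is 0.1. Over all coding genes the covered share was 3.69% ± 0.503 with DOX and 3.81% ± 0.276 without DOX (SD, n = 3 each).

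Of the 11 runs of members, coverage by the mark was highest over a run of 15 on chromosome 4, from Zfp990 to Zfp933 (GRCm38, chr4:145510759-147849126). All 15 were over H3K9me3, and regions covered 77.2, 68.9 and 72.0% of their bodies with DOX and 75.3, 83.5 and 82.1% without DOX. These groups overlapped. The whole body was covered in untreated libraries for 7 members, of which Zfp600, Zfp980, Zfp982, Zfp988 and Zfp992 belonged to this run, Zfp977 to a run of 8 on chromosome 7 and Zfp640 to chromosome 13. RefSeq promoter sequences (GRCm38.p6; 250 bases before to 50 after the start) were held for 146 members and for 11 of the 15 in the run.

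Within this run, 8 members had near copies of the same promoter: Zfp600, Zfp979, Zfp980, Zfp981, Zfp984, Zfp985, Zfp987 and Zfp988. In all 28 pairs of them, a local alignment spanned 218 to 304 columns at 79.4 to 98.3% identity, and none of the 27 pairs with Zfp933, Zfp982 or Zfp993 aligned over more than 40 columns. All 8 held the run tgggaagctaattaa, which 3 other coding-gene promoters also held. The ETS family, to which ETV2 belongs, binds a GGAA core, so GGAAGT was searched on both strands. It occurred 1 to 3 times in each of the 8 promoters and in none of the other 3, and 4218 of 16752 coding-gene promoters (25.2%) held it at least once. The promoters of Zfp936 and Zfp640, which lie outside the run, held no copy. The longer form CCGGAAGT stood in none of the 8 shared promoters. It stood in 10 of 146 member promoters (6.85%), in 20 of 155 promoters of Zfp genes below 600 (12.9%) and in 5.42% of all coding-gene promoters. At least 2 copies of GGAAGT stood in 7 of the 8 shared promoters, and 4.86% of all promoters held as many. The 8 are near copies of each other and so not independent, and no enrichment can be read from these shares. A match of letters is a description and not a binding site, and the promoter set and the motif were chosen after the RNA values had been seen. Sequences are shown 5′ to 3′, with every GGAAGT or its reverse complement in capitals. They are 4 of the 7 promoters of the shared kind whose genes rose in DKO-labelled cells, that of Zfp984 and that of Zfp982. The promoter of Zfp982 is not of the shared kind. That of Zfp984 is, and it aligned with the rest of the 8 at 79.4 to 85.2% identity over 218 to 265 columns. These alignments include the lowest identity and the shortest length of the 28 pairs. The window of Zfp600 lies at chr4:146156577-146156876, that of Zfp980 at chr4:145670447-145670746, that of Zfp981 at chr4:146514670-146514969, that of Zfp988 at chr4:147305354-147305653 and that of Zfp982 at chr4:147442864-147443163, all on the plus strand, and that of Zfp984 at chr4:147809739-147810038 on the minus strand.
Zfp600: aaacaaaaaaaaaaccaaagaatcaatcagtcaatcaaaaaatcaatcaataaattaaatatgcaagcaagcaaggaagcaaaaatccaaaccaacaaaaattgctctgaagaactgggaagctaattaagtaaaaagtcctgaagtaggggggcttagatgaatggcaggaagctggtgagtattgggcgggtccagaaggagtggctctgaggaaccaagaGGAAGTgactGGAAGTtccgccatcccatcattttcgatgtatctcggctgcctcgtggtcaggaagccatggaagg
Zfp980: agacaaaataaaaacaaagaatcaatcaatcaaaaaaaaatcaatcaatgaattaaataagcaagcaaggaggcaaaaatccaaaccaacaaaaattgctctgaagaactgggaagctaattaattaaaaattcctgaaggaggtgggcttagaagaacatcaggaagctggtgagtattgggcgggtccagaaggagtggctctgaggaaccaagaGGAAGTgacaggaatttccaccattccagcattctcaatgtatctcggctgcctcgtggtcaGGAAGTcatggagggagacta
Zfp981: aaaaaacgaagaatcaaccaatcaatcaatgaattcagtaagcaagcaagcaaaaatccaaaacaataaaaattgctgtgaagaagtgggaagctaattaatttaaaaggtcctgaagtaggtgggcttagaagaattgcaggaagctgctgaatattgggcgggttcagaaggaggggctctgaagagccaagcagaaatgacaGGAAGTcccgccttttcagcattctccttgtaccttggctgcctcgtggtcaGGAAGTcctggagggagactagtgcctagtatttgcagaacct
Zfp988: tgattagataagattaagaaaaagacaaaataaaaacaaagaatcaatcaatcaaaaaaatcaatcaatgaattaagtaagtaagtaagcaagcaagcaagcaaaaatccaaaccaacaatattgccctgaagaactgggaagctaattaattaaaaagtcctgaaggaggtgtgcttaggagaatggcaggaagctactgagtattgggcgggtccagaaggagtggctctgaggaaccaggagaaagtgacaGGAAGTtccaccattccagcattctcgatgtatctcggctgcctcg
Zfp984: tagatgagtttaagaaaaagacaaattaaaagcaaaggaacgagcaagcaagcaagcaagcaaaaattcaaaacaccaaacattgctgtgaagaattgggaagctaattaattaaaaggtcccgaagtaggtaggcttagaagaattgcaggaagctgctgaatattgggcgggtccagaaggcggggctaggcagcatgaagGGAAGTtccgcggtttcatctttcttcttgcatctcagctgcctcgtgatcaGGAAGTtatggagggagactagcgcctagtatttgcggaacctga
Zfp982: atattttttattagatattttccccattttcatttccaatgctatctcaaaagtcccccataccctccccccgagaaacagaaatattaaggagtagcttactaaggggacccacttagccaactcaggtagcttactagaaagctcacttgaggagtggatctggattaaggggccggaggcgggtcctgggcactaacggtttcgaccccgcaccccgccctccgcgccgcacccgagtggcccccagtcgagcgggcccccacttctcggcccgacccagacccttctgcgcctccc

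Promoters of members over H3K9me3 held fewer CpG dinucleotides than those of members outside it, a difference that was not tested. The median number of CpG dinucleotides per 300 bases was 9 in 74 promoters over H3K9me3 and 15 in 72 outside it, and the median GC content was 52.0% over H3K9me3 and 55.3% outside it, beside 14 CpG and 56.7% over all 16752 coding-gene promoters. GGAAGT stood in 32 of the 74 (43.2%) and in 26 of the 72 (36.1%), and in 60 of 155 promoters of Zfp genes below 600 (38.7%). The 8 shared promoters held 3 to 9 CpG.

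Over all 169 members, summed levels were 5531 ± 72.2 CPM in DKO-labelled and 3922 ± 29.9 CPM in control libraries, 4715 ± 149 CPM with DOX and 4393 ± 113 CPM without DOX in iETV2, and 5205 ± 33.0 CPM with DOX and 5412 ± 163 CPM without DOX in the H188A line (SD, n = 3 each). Zfp genes below 600 summed to 7560 ± 21.7 CPM in DKO-labelled and 6754 ± 4.43 CPM in control libraries. Between 15 and 27 members were below 1 CPM in a group. A count of 0 in all 18 libraries, which allows up to 3 counts in all, was found for Zfp935, and 7 further members (Zfp616, Zfp708, Zfp735, Zfp965, Zfp967, Zfp968 and Zfp973), with 9 to 129 counts over all libraries, passed the filter on low counts in no comparison; 155 members passed it in every comparison.

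**Figure D2:**
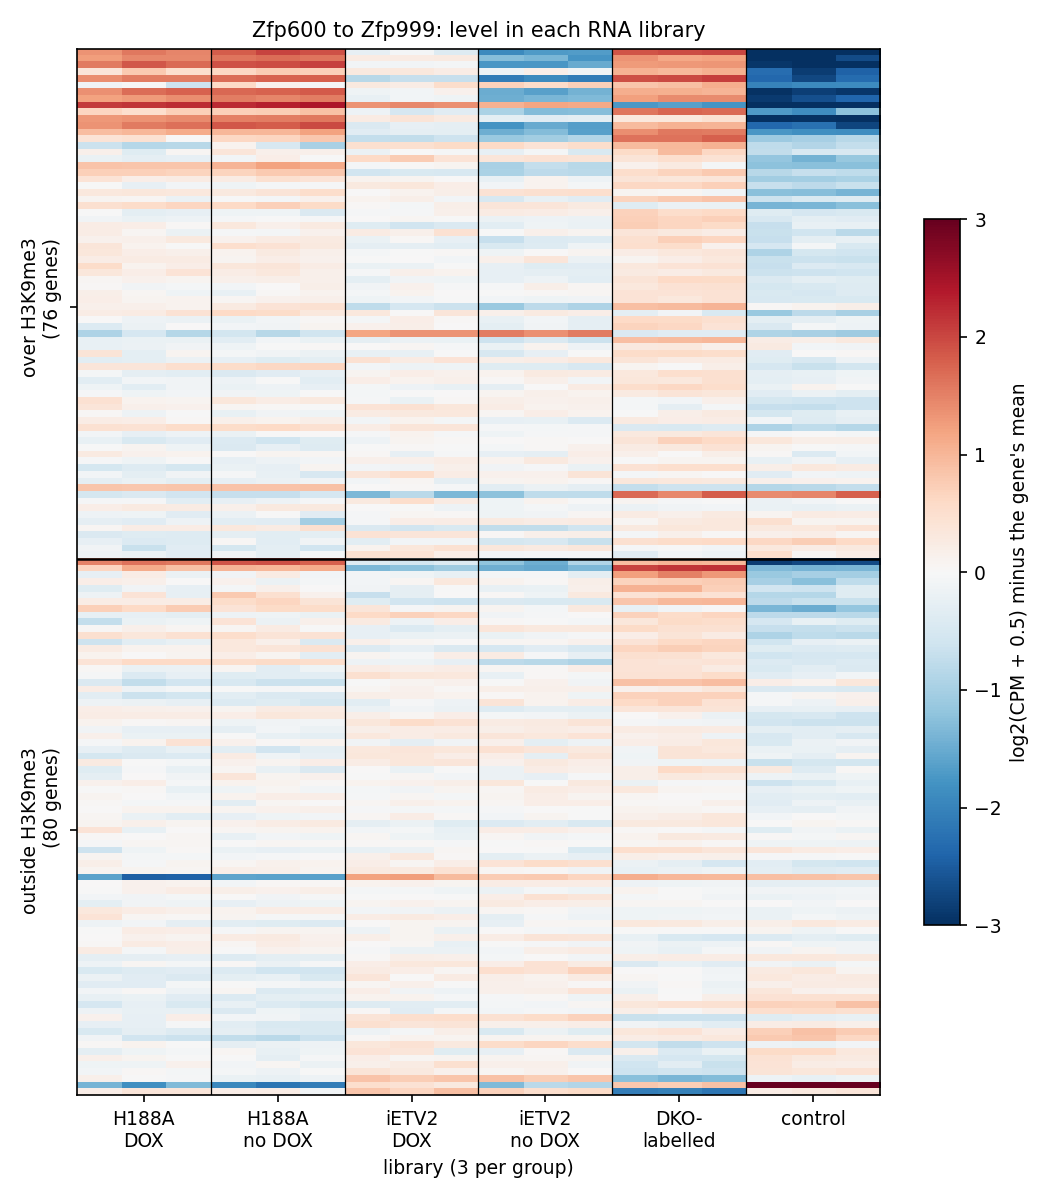
Level of 156 members (rows) in the 18 RNA libraries (columns, 3 per group), as log2(CPM + 0.5) minus the gene's mean over all libraries, with 76 members over H3K9me3 above the line and 80 outside it below, each sorted by the change in DKO-labelled cells. Replicates resemble each other, and the control libraries are lowest for the top rows, which include Zfp936, Zfp640 and Zfp978.

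The comparison of DKO-labelled with control cells concerned the genotype label KDM4A/4C DKO, although Kdm4c RNA was not lower, and most members were higher in the DKO-labelled libraries. Of 156 members tested, 96 rose and 27 fell at an adjusted p under 0.05 by edgeR's quasi-likelihood test. All log2 changes here use scaling factors (TMM) beside library totals, and in this comparison they lie below the ratios of CPM values: with library totals alone the median of all genes moved up by 0.12 on the log2 scale, and 108 members rose and 23 fell. Over all 20426 genes tested, 35.6% rose and 33.7% fell, so the members' 61.5% that rose stood above this background and their 17.3% that fell below it. The split by H3K9me3 was uneven: 59 of 76 members over the mark rose and 5 fell, whereas 37 of 80 outside it rose and 22 fell. The mark was called in untreated ChIP libraries whose labels name no line. Its state in DKO-labelled, control or H188A cells is therefore not known. The median log2 change was 0.75 over the mark and 0.12 outside it, beside 0.04 for all genes tested. Zfp genes below 600 had medians of 0.34 over the mark and -0.0044 outside it, and other coding genes 0.19 and -0.09. The pluripotency, blood and endothelial markers named above moved with the same groups, as did 5 of 6 neural markers, which rose, and 4 of 5 visceral endoderm markers, which fell, while fibroblast markers were mixed. The part of these markers in the members' changes was not tested.

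Members of the chromosome 4 run were among those that rose most. The run summed to 657, 694 and 723 CPM in DKO-labelled libraries and to 186, 196 and 200 CPM in control libraries. Of its 15 members 11 rose, 10 of them more than 2-fold, Zfp991 fell, and the median log2 change was 3.47. Zfp978 had 59.96, 60.5 and 61.9 CPM in DKO-labelled against 2.78, 1.80 and 1.98 CPM in control libraries, a log2 change of 4.67 ± 0.10 (SE; adjusted p = 2.26e-20). Zfp981 had 104, 107 and 116 CPM against 4.89, 3.63 and 5.01 CPM, a change of 4.46 ± 0.08. Zfp980 had 39.1, 38.7 and 37.4 CPM against 1.89, 2.14 and 1.99 CPM, a change of 4.14 ± 0.08. In each of these genes the lowest DKO-labelled library was above the highest control library in CPM, with a wide gap.

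Not every member of the run took part. Zfp984, with the shared promoter, averaged 34.2 ± 1.16 CPM in DKO-labelled and 31.0 ± 1.39 CPM in control libraries, with a log2 change of 0.02 ± 0.05 (adjusted p = 0.801). Zfp993 and Zfp933, which lack that promoter, had log2 changes of -0.01 ± 0.14 and -0.02 ± 0.09, and neither passed the test. Of the 8 members with the shared promoter 7 rose, with a median log2 change of 3.69, and of the 3 with another promoter Zfp982 rose, by 1.42 ± 0.13. Zfp991 averaged 21.0 ± 0.251 CPM against 21.6 ± 1.24 CPM and fell by 0.16 on the log2 scale (adjusted p = 0.0273), although its CPM values overlapped between the groups. The paralogs are close copies, the gene bodies of Zfp978, Zfp988 and Zfp991 and of Zfp981 and Zfp993 overlap, and no source used here says how reads shared between genes were handled, so the split of counts among them is uncertain.

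**Figure D3:**
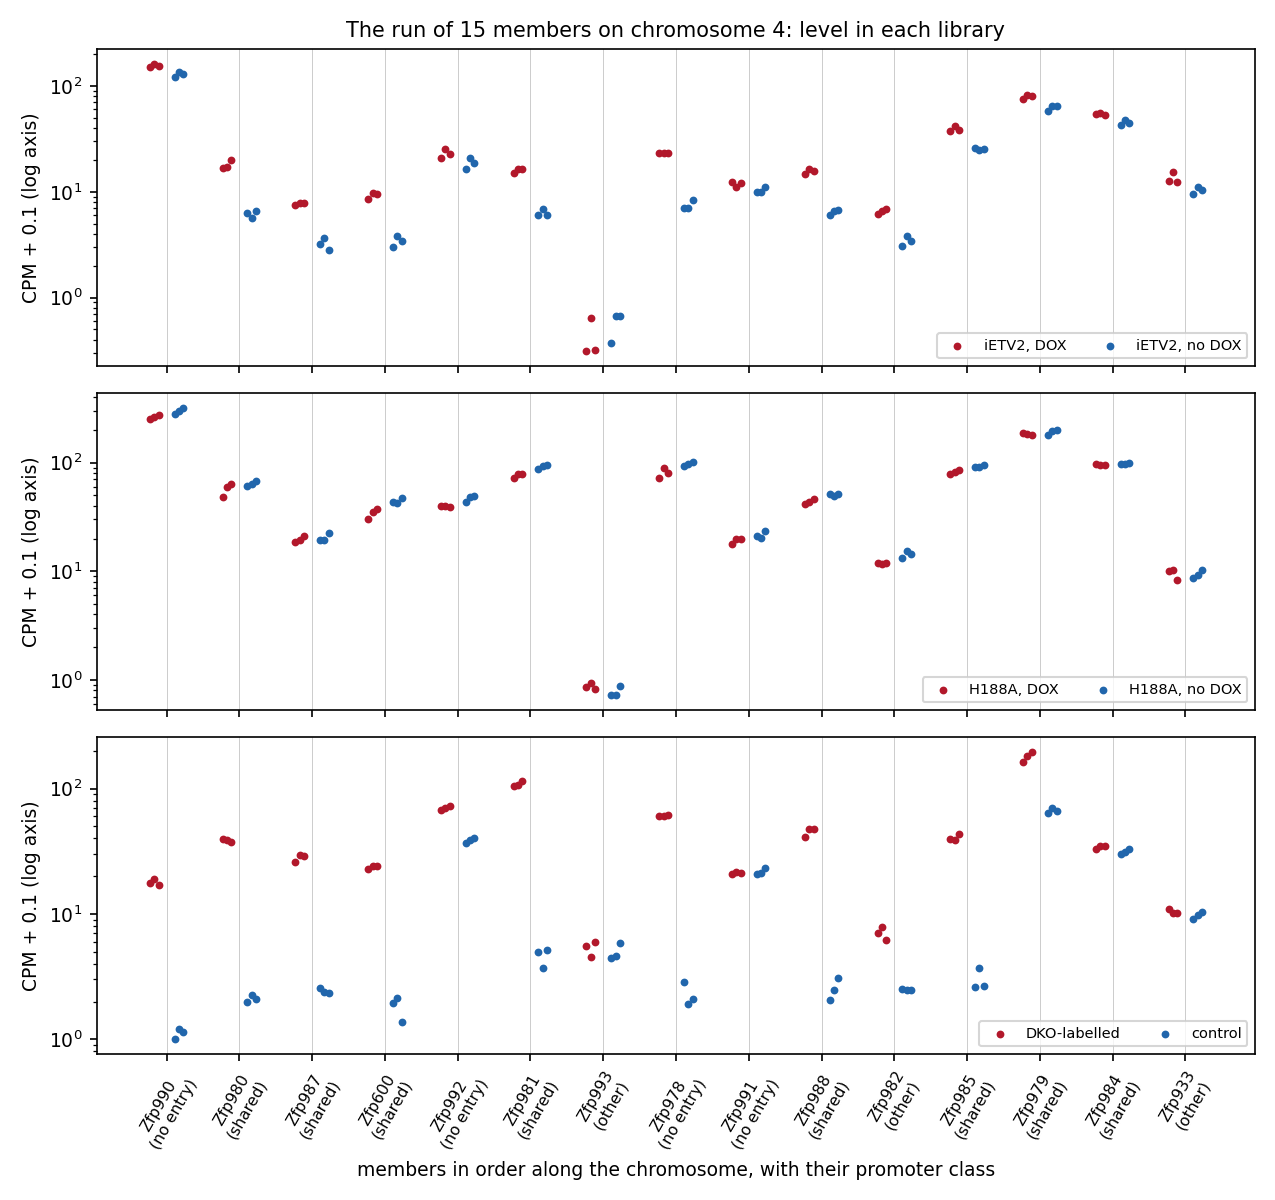
Level of the 15 members of the chromosome 4 run in each library (y, CPM + 0.1, log axis), in order along the chromosome (x), with their promoter class. DKO-labelled libraries (red, bottom) lie far above control libraries (blue) for Zfp980, Zfp981 and Zfp978 and beside them for Zfp984 and Zfp933; DOX libraries (red, top) lie above no-DOX libraries in iETV2 for most members but not Zfp993, and the H188A groups (middle) lie side by side.

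Large rises also occurred on chromosomes 7, 13 and 8. All 8 members of the chromosome 7 run from Zfp977 to Zfp819 (chr7:42579397-43618279) rose, and the run summed to 201 ± 6.24 CPM in DKO-labelled against 71.2 ± 4.07 CPM in control libraries. Zfp936 in this run had 37.9, 39.5 and 40.8 CPM against 0.323, 0.549 and 0.727 CPM, the largest change of any tested member at 6.06 ± 0.12 (adjusted p = 2.41e-20). Zfp819, a KRAB gene known from pluripotent cells and testis, had 11.01, 11.9 and 11.6 CPM against 0.341, 0.412 and 0.427 CPM, a change of 4.74 ± 0.15, with no untreated H3K9me3 region over its body. Zfp640 on chromosome 13 had 17.8, 15.7 and 16.1 CPM against 0.341, 0.255 and 0.632 CPM, a change of 5.16 ± 0.17. Zfp709 and Zfp773 changed by 4.52 ± 0.19 and 4.21 ± 0.23, and both had under 1 CPM in every control library. The run of 14 on chromosome 17 from Zfp677 to Zfp945 showed the smaller, broad pattern: 12 rose and 1 fell, with a median log2 change of 0.68.

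Members that fell in DKO-labelled cells lay mainly outside H3K9me3. Zfp775 had 0.416, 0.441 and 0.358 CPM in DKO-labelled against 3.97, 4.25 and 4.44 CPM in control libraries, a log2 change of -3.49 ± 0.21 (adjusted p = 2.99e-12). Zfp711, the X-linked partner of the histone demethylase PHF8, had 10.5, 9.90 and 11.1 CPM against 60.3, 65.5 and 63.7 CPM, a change of -2.71 ± 0.06. The groups did not overlap in either gene. Zfp629, Zfp746, Zfp691, Zfp777, Zfp771 and Zfp939 fell by 1.31 to 0.66 on the log2 scale, and of these Zfp939 was over H3K9me3. Zfp746 is the gene for PARIS, a repressor known as a parkin substrate. The run of 9 on chromosome 7 from Zfp771 to Zfp646, none of it over the mark, had 3 members that rose and 3 that fell and a median of 0.07.

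**Figure D4:**
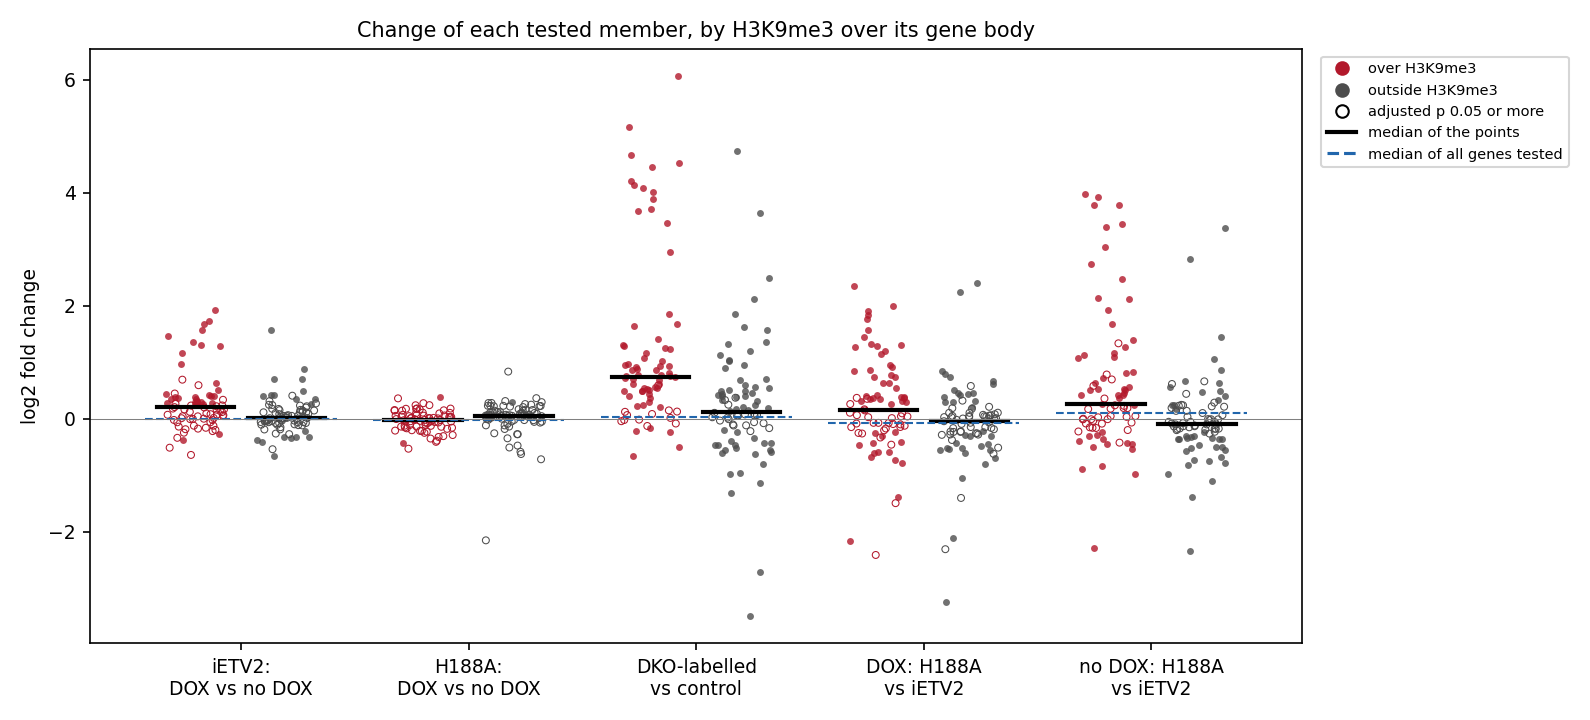
Log2 fold change of each tested member (points) in 5 comparisons, for members over H3K9me3 (red) and outside it (grey); open points missed an adjusted p of 0.05, black bars are medians of the points and the dashed blue line is the median of all genes tested. The red median is above the grey one by 0.63 in DKO-labelled cells and by 0.19 with DOX in iETV2, and below it by 0.08 with DOX in the H188A line. In that last comparison other coding genes, not drawn, had medians of -0.04 over the mark and 0.04 outside it.

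In the iETV2 line, more members rose with DOX than fell. Of 159 tested, 40 rose and 10 fell at an adjusted p under 0.05, while 13.7% of all 22025 genes tested rose and 13.3% fell. With the replicate number as a block, which the counts above leave out, 53 rose and 16 fell. Of the members over H3K9me3, 29 of 78 rose and 2 fell, and of those outside it 11 of 81 rose and 8 fell. The medians were 0.20 over the mark and 0.01 outside it, beside 0.00 for all genes tested. Of 193 Zfp genes below 600 tested, 43 rose (22.3%) and 16 fell (8.29%), close to the members' 25.2% and 6.29%, and their medians were 0.05 over the mark and 0.07 outside it. Without DOX-treated replicate 1 or 2 the number that rose was 25 or 24, and without untreated replicate 3 it was 25; without untreated replicate 1 or 2 the number that fell was 6 or 5. Of the 40 that rose, 13 belonged to the chromosome 4 run and 5 to the run of 8 on chromosome 7. Without the runs on chromosomes 4 and 7, 22 rose and 10 fell, and the difference of medians was 0.11. Of 79 members tested outside all 11 runs, 12 rose (15.2%) and 6 fell (7.59%), nearer the shares of all genes.

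The chromosome 4 run was part of this rise. It summed to 457, 490 and 472 CPM with DOX and to 319, 352 and 342 CPM without DOX, and the groups did not overlap. Of its 15 members 13 rose, with a median log2 change of 0.64, and all 8 with the shared promoter rose, by 0.27 to 1.57. Zfp978 had 23.0, 22.9 and 23.4 CPM with DOX against 6.94, 6.90 and 8.22 CPM without DOX, a log2 change of 1.67 ± 0.08 (SE; adjusted p = 3.7e-10). Zfp980 had 16.6, 17.0 and 19.8 CPM against 6.17, 5.58 and 6.48 CPM, a change of 1.57 ± 0.09. Zfp600, Zfp981 and Zfp988 changed by 1.47 ± 0.13, 1.37 ± 0.10 and 1.31 ± 0.09. Zfp993, at 0.211, 0.542 and 0.218 CPM with DOX and 0.275, 0.576 and 0.564 CPM without DOX, and Zfp991, with a change of 0.22 ± 0.09 (adjusted p = 0.0837), did not pass the test.

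Zfp640 had the largest change, with 8.01, 8.11 and 8.22 CPM with DOX against 2.47, 2.27 and 1.62 CPM without DOX, a log2 change of 1.93 ± 0.16 (adjusted p = 1.19e-07). Zfp936 had 8.28, 9.47 and 7.34 CPM against 2.25, 2.67 and 2.75 CPM, a change of 1.73 ± 0.14. Both are over H3K9me3 along nearly their whole body, at 100 and 98.5% in untreated libraries. Zfp711 had 8.40, 8.003 and 7.18 CPM against 2.01, 3.08 and 2.91 CPM, a change of 1.57 ± 0.16, and is outside the mark.

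The falls with DOX were small. Zfp667, also called Mipu1, had 7.33, 6.48 and 7.11 CPM with DOX against 11.4, 10.9 and 10.9 CPM without DOX, a log2 change of -0.65 ± 0.10 (adjusted p = 0.00011). Zfp688, Zfp647, Zfp946, Zfp940, Zfp956, Zfp811 and Zfp692 fell by 0.41 to 0.31 on the log2 scale, and of these Zfp946 was over H3K9me3. The calls of Zfp688, Zfp647, Zfp940, Zfp956 and Zfp811 were each lost without at least 1 of the 6 libraries, at adjusted p-values up to 0.138. That of Zfp811 was also lost with DESeq2 (adjusted p = 0.120), with no count filter and with all 18 libraries in the fit. Those of Zfp647, Zfp956 and Zfp692 were lost with no count filter. All 9 blood and endothelial markers rose with DOX, their sum being 555 to 563 CPM with DOX and 28.0 to 33.2 CPM without DOX, and other marker lists also differed. Of 6 neural markers tested, 4 fell and none rose, and the list summed to 77.8 to 84.4 CPM with DOX and 143 to 154 CPM without DOX. Of 6 visceral endoderm markers 2 rose and 1 fell, with sums of 120 to 124 CPM with DOX and 68.4 to 72.1 CPM without DOX. Of 9 pluripotency markers 3 rose and 2 fell. The part of these shifts in the members' changes was not tested.

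In the H188A line, few members were called with DOX. Of 156 tested, Zfp787 and Zfp608 rose and Zfp936 fell, while 2.22% of all 21086 genes tested rose and 0.801% fell. The untreated libraries of this line stood apart from each other, as described above. A missing call here thus does not show that a level was unchanged. Zfp787 had 17.7, 19.0 and 16.3 CPM with DOX against 13.2, 14.9 and 13.7 CPM without DOX, a log2 change of 0.39 ± 0.08 (adjusted p = 0.0450). Zfp608 had 93.2, 98.6 and 90.7 CPM against 75.6, 80.6 and 81.8 CPM, a change of 0.29 ± 0.06 (adjusted p = 0.0307). Zfp936 had 25.9, 30.3 and 27.9 CPM against 36.0, 41.8 and 38.5 CPM, a change of -0.42 ± 0.08 (adjusted p = 0.0266). Zfp787 lost its call without any of 5 libraries left out singly and the other two without any of 4, at adjusted p-values up to 0.224. The medians were -0.02 over H3K9me3 and 0.06 outside it. This split was not particular to the members: Zfp genes below 600 had medians of 0.005 and 0.07, and other coding genes -0.04 and 0.04. The chromosome 4 run summed to 975, 1032 and 1043 CPM with DOX and 1091, 1143 and 1197 CPM without DOX. The groups of sums did not overlap, and no member of the run was called. With the receptor sum as a covariate no member was called.

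The direct test of the difference, the interaction of line and treatment, called 23 members lower and 6 higher in H188A than in iETV2 cells, a log2 change with DOX being compared. Over all 25516 genes tested, 6.2% were lower and 8.22% higher. Of the 78 members over H3K9me3 tested, 18 were lower and 1 higher, and of 82 outside it 5 were lower and 5 higher. The run on chromosome 4 held 11 of the 23. Zfp936 changed by -0.42 in the H188A line and 1.73 in iETV2, a difference of -2.15 ± 0.16 (SE; adjusted p = 2.2e-07). Zfp640 changed by -0.20 and 1.93 in the same lines, a difference of -2.12 ± 0.17, and Zfp978 by -0.21 and 1.67, a difference of -1.88 ± 0.12. Zfp827, whose human counterpart recruits the NuRD complex to telomeres, changed by -0.05 and 0.70, a difference of -0.74 ± 0.09 (adjusted p = 2.19e-05). On the other side, Zfp688 changed by 0.31 and -0.41, a difference of 0.73 ± 0.16. Without DOX-treated iETV2 replicate 2 the number lower was 14, and without DOX-treated H188A replicate 1 the number higher was 3.

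The H188A and iETV2 lines also differed from each other without DOX. There, 50 of 160 members were higher in the H188A line and 40 were lower, beside 19.7% and 18.6% of all 25516 genes tested. With DOX, 52 were higher in the H188A line and 32 lower, beside 19.9% and 17.6%. With library totals alone the counts with DOX were 45 higher and 52 lower. Among members over H3K9me3, 35 of 78 were higher and 14 lower in either comparison, with medians of 0.25 without DOX and 0.16 with DOX, and medians outside the mark were -0.10 and -0.03. All genes tested had medians of 0.10 without DOX and -0.08 with DOX. Other coding genes had medians of 0.15 over the mark and 0.04 outside it without DOX, and -0.09 and 0.008 with DOX. Without DOX-treated iETV2 replicate 2 the number lower with DOX was 21. The KDM4A (H188A) named by the label and any other difference between the lines cannot be told apart. Marker lists differed too. The visceral endoderm markers summed to 500 to 516 CPM in H188A and 68.4 to 72.1 CPM in iETV2 cells without DOX, mostly through Cubn at 422 ± 3.29 CPM against 2.79 ± 0.870 CPM, and of 7 tested 4 were higher and 1 lower. The pluripotency markers summed to 2376 to 2502 CPM in H188A and 1588 to 1645 CPM in iETV2 cells without DOX, with 6 of 9 higher and 1 lower. Of 7 neural markers 5 were higher and 1 lower, and of 7 markers of 2-cell-like cells 5 were higher and none lower. The markers of 2-cell-like cells were low, with sums of 5.03 to 8.11 CPM in H188A and 0.167 to 0.634 CPM in iETV2 cells without DOX. The part of these lists in the members' differences was not tested.

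In the chromosome 4 run, 13 of 15 members were more than 2-fold higher in the H188A line without DOX, with a median log2 difference of 1.92. Zfp981 had 87.0, 92.9 and 94.9 CPM in H188A against 5.88, 6.84 and 5.94 CPM in iETV2 cells without DOX, a difference of 3.93 ± 0.09 (SE; adjusted p = 6.12e-14). With DOX the values were 71.9, 78.8 and 78.8 CPM in H188A against 15.0, 16.5 and 16.4 CPM in iETV2 cells, a difference of 2.35 ± 0.09. The groups did not overlap in either comparison. Zfp990 had 281, 300 and 320 CPM in H188A against 122, 135 and 130 CPM in iETV2 cells without DOX, a difference of 1.27 ± 0.08, and it had 17.6, 18.9 and 17.0 CPM in DKO-labelled against 0.898, 1.12 and 1.04 CPM in control libraries, a change of 4.00 ± 0.12. Its level in the iETV2 and H188A lines was thus above its level in either of the other groups.

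Of the 40 members lower in the H188A line without DOX, 26 were outside H3K9me3, and of the 32 lower with DOX 18 were, while 82 of the 160 members tested were outside it. Zfp703, a transcriptional corepressor of the NET family, had 10.2, 10.04 and 9.93 CPM in H188A against 54.3, 54.8 and 49.9 CPM in iETV2 cells without DOX, a difference of -2.35 ± 0.18 (adjusted p = 3.5e-08). With DOX it had 10.2, 5.41 and 5.51 CPM in H188A against 73.4, 76.3 and 61.5 CPM in iETV2 cells, a difference of -3.24 ± 0.19. Zfp677 differed by -2.29 ± 0.13 without DOX and -2.17 ± 0.13 with DOX, and Zfp711 by -1.38 ± 0.22 and -2.10 ± 0.21. Zfp677 is over H3K9me3, and the other two are outside it. None of the H188A libraries reached the lowest iETV2 library in these 3 genes.

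The iETV2 DOX comparison and the DKO comparison share no libraries, and their gene lists overlapped in part. Of the 40 members that rose with DOX in iETV2, 28 also rose in DKO-labelled cells, which is 70.0% of the 40 and 29.2% of the 96 that rose in DKO-labelled cells, beside 61.5% of all tested members that rose there. Zfp640, Zfp936, Zfp978, Zfp980, Zfp600, Zfp981 and Zfp988 were among these 28. Zfp711 went opposite ways, with log2 changes of 1.57 with DOX in iETV2 and -2.71 in DKO-labelled cells, and Zfp667 likewise, with -0.65 and 1.13. Of the 50 members higher in the H188A line without DOX, 43 rose in DKO-labelled cells, which is 86.0% of the 50 and 44.8% of the 96. Among all tested members, 61.5% rose in DKO-labelled cells and 31.25% were higher in the H188A line without DOX. Over all genes tested these shares were 35.6% and 19.7%. The overlap of the lists over all genes was not computed.

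**Figure D5:**
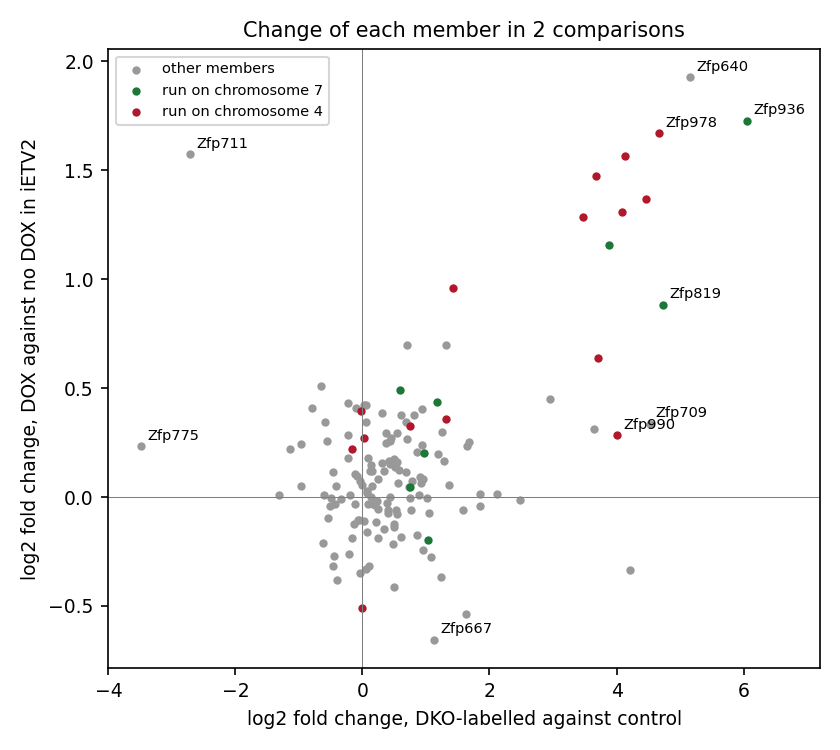
Log2 fold change in DKO-labelled against control cells (x) and with against without DOX in iETV2 cells (y) for 155 members, with the runs on chromosomes 4 and 7 coloured. Members of both runs reach the upper right, led by Zfp936 at 6.06 and 1.73, and Zfp711 lies at the upper left.

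Several members have a known role in retroelement silencing. Zfp809, which binds the primer binding site of murine leukaemia viruses and recruits TRIM28, averaged 38.0 ± 2.36 CPM in DKO-labelled and 23.9 ± 1.27 CPM in control libraries, a log2 change of 0.54 ± 0.06 (SE; adjusted p = 8.27e-08; SD, n = 3 each). It averaged 32.7 ± 0.910 CPM with DOX and 26.8 ± 1.35 CPM without DOX in iETV2, a change of 0.30 ± 0.08 whose call was lost without DOX-treated replicate 1 or untreated replicate 3 (adjusted p up to 0.0895). Zfp932, a KRAB repressor of endogenous retroviruses, averaged 11.6 ± 0.936 CPM in DKO-labelled and 5.54 ± 0.998 CPM in control libraries, a change of 0.94 ± 0.11. With DOX in iETV2 its change was 0.41 ± 0.13, and its call was lost without any of 4 libraries left out singly (adjusted p up to 0.275). The call was also lost with DESeq2 (adjusted p = 0.0835). Zfp638, which recruits the HUSH silencing complex to unintegrated retroviral DNA, averaged 316 ± 3.51 CPM against 206 ± 1.25 CPM in control libraries, a change of 0.49 ± 0.04. With DOX in iETV2 its change of 0.17 ± 0.07 passed the test with the replicate block (adjusted p = 0.000461) and not without it (adjusted p = 0.0652). Zfp808 and Zfp661 changed by 1.29 ± 0.07 and -0.45 ± 0.12 in DKO-labelled cells, and Zfp708 had too few counts to be tested.

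Members with roles outside retroelement silencing were mixed. Zfp750, a regulator of epidermal differentiation, had 27.1, 29.1 and 30.3 CPM in DKO-labelled against 2.19, 2.06 and 2.12 CPM in control libraries, a log2 change of 3.64 ± 0.09, and was higher in the H188A line by 2.83 ± 0.13 without DOX and 2.41 ± 0.13 with DOX. Zfp827 changed by 1.32 ± 0.05 in DKO-labelled cells and by 0.70 ± 0.06 with DOX in iETV2. Zfp830, also called Omcg1 and needed by the early embryo, changed by -0.52 ± 0.07 in DKO-labelled cells. Zfp706, known for promoting exit from the embryonic stem cell state, had changes of -0.04 ± 0.04 in DKO-labelled cells (0.08, past the threshold, with library totals alone) and 0.07 ± 0.08 with DOX in iETV2, and neither passed the test. Zfp687, whose human counterpart is mutated in Paget disease of bone, had -0.06 ± 0.04 and -0.10 ± 0.07 in the same comparisons, and only the change with DOX passed, with the replicate block (adjusted p = 0.0495).

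The genes through which KRAB proteins act were described as a list of 29 writers and readers of H3K9me3. In DKO-labelled cells 10 rose (34.5%) and 15 fell (51.7%), beside 35.6% and 33.7% of all genes. In iETV2, 4 rose with DOX (13.8%) and 3 fell (10.3%), beside 13.7% and 13.3%, and none was called with DOX in the H188A line, where 2.22% and 0.801% of all genes were called. Without DOX, 14 of the 29 were higher in the H188A line than in iETV2 cells (48.3%) and 4 lower (13.8%), beside 19.7% and 18.6%. Trim28 averaged 535 ± 6.37 CPM in DKO-labelled and 425 ± 5.72 CPM in control libraries, a log2 change of 0.21 ± 0.03, and Setdb1 averaged 168 ± 3.09 CPM and 134 ± 2.06 CPM, a change of 0.20 ± 0.04. Suv39h1, another H3K9 methyltransferase, averaged 109 ± 3.86 CPM in DKO-labelled and 263 ± 4.53 CPM in control libraries, a change of -1.39 ± 0.04. Of 9 H3K9 demethylases, 5 fell and none rose with DOX in iETV2, where 13.3% of all genes fell, among them Kdm4b at 45.9 ± 2.12 CPM with DOX and 66.6 ± 1.15 CPM without DOX, a change of -0.52 ± 0.07. In DKO-labelled cells 6 of the 9 rose (66.7%) and 3 fell (33.3%), beside 35.6% and 33.7% of all genes. None of the 9 was called with DOX in the H188A line. The interaction called 5 of the 9 higher and none lower, beside 8.22% and 6.2% of all genes.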

How the data were processed

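The members and gene lists were chosen with earlier results of these data known. RNA was measured in 18 libraries and H3K9me3 in 6; 6 input libraries held no values and were not used. The authors deposited raw counts per gene, and a region list for each ChIP library with ChIP and input counts, a p-value and FDR, a log2 fold change and a score, per the file headers. Only the positions and FDR of these regions were used. The submitters' processing notes name featureCounts 2.0.6, STAR 2.7.10b, HTSeq 2.0.3, StringTie 2.2.1, DESeq2 1.18.1, Picard 3.0.0, Bowtie, DiffBind and ChIPseeker, with GRCm38 and mm10. Strand setting, multi-mapping rule and region caller are not given in the sources used here. All FDR values were under 0.05, and region starts lay on a 200 bp grid.

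Counts were tested across all genes with edgeR 4.0.16 (R 4.3.3) by the quasi-likelihood test, after filterByExpr and TMM scaling, with Benjamini-Hochberg adjustment over all genes and a threshold of 0.05. The DOX comparisons used the 6 libraries of a line, the DKO comparison its 6, and the line comparisons and interaction 12. SEs were obtained as the absolute log2 change over the root of F. CPM used library totals. The fitting step was tested on simulated data. A gene was over H3K9me3 where regions of at least 2 untreated libraries overlapped its body by 1 bp or more. Lists were 1 per ChIP library, so sums over regions also move with how much was called in each (207.7 to 296.5 Mb). ChIP comparisons used the exact permutation test (scipy 1.17.1). Promoters from RefSeq (GRCm38.p6) were aligned locally with Biopython 1.88 (match 2, mismatch -3, gap opening -5, extension -2).

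Genes were named by rule: for each comparison the 8 largest rises and falls among members past the threshold with an average log2 CPM of at least 0 and groups that did not overlap, members with a role known from the literature, and the 5 with the largest untreated coverage, which became 7 because all 7 tied at 100%. A planned choice by counts per kilobase was not used, because no exon lengths were at hand. Other members are named where a run, a promoter class or a short count calls for it, after their values were seen. In iETV2, deviations of same-numbered DOX and untreated libraries correlated at r = 0.103, 0.412 and 0.534, where all 9 possible pairs ranged from -0.576 to 0.534. Any pairing by number is read from the data alone and stays uncertain. The counts given therefore come from fits without a block, and the block was an alternative. Alternatives were DESeq2 1.42.0, RLE size factors, library totals only (added later), other count filters, all 18 libraries in the fit, a replicate block, the receptor sum as a covariate, other H3K9me3 rules and leaving out each replicate.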

Additional observations from a re-analysis of the deposited data

Results flagged for a closer look

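The change with DOX differed between the lines by the interaction test for 23 members that were lower in the H188A line and 6 that were higher, of 160 tested. The differences of log2 changes, H188A minus iETV2, were -2.15 for Zfp936, -2.12 for Zfp640, -1.88 for Zfp978, -1.78 for Zfp600, -1.68 for Zfp980, -1.57 for Zfp981, -1.47 for Zfp988 and -1.29 for Zfp987. All but Zfp936 and Zfp640 of these 8 lie in the chromosome 4 run. On the other side they were 0.73 for Zfp688, 0.69 for Zfp667, 0.60 for Zfp647, 0.51 for Zfp608, 0.41 for Zfp787 and 0.36 for Zfp692. The call of Zfp692 was lost without any of 11 of the 12 libraries left out singly, with a replicate block, with library totals only and with no count filter, at adjusted p-values up to 0.119 by edgeR. That of Zfp787 was lost without any of 5 libraries, with no filter and with the receptor covariate, at adjusted p-values up to 0.134. That of Zfp647 was lost without either of 2 libraries and that of Zfp608 without 1. The 2 lines already differed without DOX, and Etv2 averaged 15.2 CPM in H188A and 18.6 CPM in iETV2 cells with DOX. The part of either in these differences was not tested.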

How the results depend on the processing

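Of 2594 recalculated values of single named genes, 2458 stayed on the same side of the threshold. These include genes called neither before nor after, so the number does not count calls that held. A call was lost in 112 and gained in 23. Recalculated values of called genes without an adjusted p were left out. A reversed direction was counted only where the gene was called before or after. There was 1: Zfp706 in DKO-labelled cells was 0.0807 with library totals only, a setting chosen after seeing the data. With the same setting 1 member rose and 2 fell with DOX in H188A, 52 were lower in H188A than in iETV2 with DOX, and the interaction called 35 lower. For DOX in iETV2, 4 members fell with no count filter and 16 with a replicate block; without the chromosome 4 and 7 runs, an alternative chosen after seeing the data, 22 rose and the difference of medians (over minus outside H3K9me3) was 0.1085 instead of 0.193. For DOX in the H188A line, the number that rose was 0 with RLE, the receptor covariate or the replicate block, 1 with DESeq2, 5 with all 18 libraries and 6 with no filter, and the number that fell was 0 with the covariate or without the runs, 2 with no filter and 7 with at least 1 CPM in 3 libraries. For DKO-labelled cells the difference of medians was 0.4194 with 5 kb flanks and 0.494 without the runs. Between the lines without DOX, 32 members were higher with no filter, and the difference of medians was 0.5243 with regions in all 3 libraries and 0.4882 with 10% coverage. With DOX, 19 were lower with no filter, and the difference was 0.0594 with regions in any library, 0.3873 in all 3, 0.334 with 10% coverage and 0.0459 with flanks. The interaction called 14 lower with no filter, 36 with at least 1 CPM in 3 libraries and 35 with the covariate.

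Leaving out 1 replicate gave 24 to 46 risen and 5 to 10 fallen with DOX in iETV2, 0 to 2 and 0 to 2 in H188A, 94 to 98 and 25 to 26 in DKO-labelled cells, 45 to 51 higher and 30 to 39 lower between lines without DOX, 39 to 48 and 21 to 30 with DOX, and 3 to 6 and 14 to 25 for the interaction. Differences of medians in the same order were 0.1247 to 0.2173, -0.0921 to -0.0591, 0.597 to 0.6474, 0.3295 to 0.4084, 0.1745 to 0.273 and -0.3479 to -0.2463. The DOX difference in members overlapped by H3K9me3 was -0.833 to 3.667, negative without untreated replicate 3, and that in covered share -4.693 to -2.517. In iETV2, the block changed the calls of Zfp638 and Zfp687 and of no other named gene. Deviations of same-numbered libraries correlated at r = -0.109, 0.007 and 0.277 in H188A and at 0.012, 0.003 and 0.019 in the DKO comparison. With the block 0 rose and 1 fell in H188A, and 96 rose and 27 fell in DKO-labelled cells. The cause of these changes was not tested. Members with few counts, and close copies in the runs, limit what gene counts can resolve.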
